A study of Homo sapiens with 6 samples.

Results

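The transcripts described here are those of 42 genes of the erythroid program, the genes that a red cell precursor uses to make globin chains, heme and the red cell membrane. They were read in K562, an established human leukaemia cell line that carries BCR-ABL1 and keeps part of the erythroid program in culture. Single-symbol probe sets were found for 35 of the 42 genes, 84 probe sets out of 54613 on the array. HBA1, HBA2, HBG1 and HBG2 were read only by 9 probe sets that name both alpha or both gamma globin genes, which are described apart, and the array signal of GYPB, GYPC and GYPE, for which no single-symbol probe set was found, was not analysed here. Of the 35, 33 were tested, 74 probe sets in all. All cells were K562 grown in medium with serum. The 2 groups were wells with DMSO, the vehicle, and wells with 25 nM of CA, which the series title spells out as cortistatin A. Cortistatin A blocks CDK8 and CDK19, kinases of the Mediator complex. Each treatment lasted 3 h, and each group had 3 arrays. The labels call the wells triplicates and name no separate cultures, so p-values measure the spread between these arrays, which may be technical.

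A haemoglobin molecule pairs alpha-like with beta-like globin chains, and each chain holds a heme. During development the embryonic chains zeta and epsilon are replaced by alpha and the fetal gamma chains, and after birth beta, with a little delta, replaces gamma. Heme is built in a fixed order of enzymes that begins and ends in the mitochondrion, from the ALAS enzymes to ferrochelatase, and its iron enters the cell through the transferrin receptor. The membrane proteins tie the lipid bilayer to a spectrin skeleton. GATA1, a zinc finger factor that binds GATA sequences, controls many of these genes.

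In DMSO, embryonic, fetal and adult globins, each of the 8 heme enzymes and most membrane genes had a probe set above the filter on dim signal, while HBM and CA2 lay only on probe sets too dim to test. Passing that filter does not by itself show that a gene is expressed. Some markers of other cell types passed it: CD3D, a T cell gene, had a mean of 9.07 over the 6 arrays. LYZ, a gene of granulocytes and monocytes, had 8.88 and COL1A1, a fibroblast collagen gene, 6.94, each on its brightest probe set. These were the brightest markers of their types, while CD2, MPO, ELANE, CD14 and COL3A1 did not pass. The COL1A1 value is from a probe set with a suffix that marks possible binding to related transcripts. Other COL1A1 probe sets had means of 1.67 to 4.07. Whether K562 cells express CD3D, LYZ or COL1A1 was not tested. After 3 h of CA, 0 of 74 tested member probe sets passed the test (limma, adjusted p under 0.05 over all tested probe sets), where the background is 0.0952% of 27307 (0.0513% called higher). By the brightest tested probe set of each of 33 genes, the fitted changes ran from -0.10 to 0.17 on the log2 scale, with a median of 0.01. The globin and heme enzyme genes had intervals that stayed within 1.16-fold in either direction. The lowest p-value belonged to TFRC, the transferrin receptor, which had 1.09-fold to 1.24-fold fitted rises on 3 of its 4 tested probe sets, none past the threshold.

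The sequence upstream of 26 members was in the RefSeq promoter table (GRCh38.p14), and 4 of these windows of 250 bases before the start of transcription are shown. They set a globin, a heme enzyme and a membrane gene, each with a GATA word, beside TFRC, which has none in this window. Capitals mark AGATAA or TGATAA on either strand, so a match on the other strand reads TTATCT or TTATCA. The windows run 5′ to 3′ along the gene.
HBD, chr11:5234484-5234733, minus strand: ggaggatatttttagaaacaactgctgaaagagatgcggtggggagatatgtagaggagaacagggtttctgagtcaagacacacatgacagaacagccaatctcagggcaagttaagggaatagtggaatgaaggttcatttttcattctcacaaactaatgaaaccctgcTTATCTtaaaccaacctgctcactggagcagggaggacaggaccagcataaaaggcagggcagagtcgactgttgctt
ALAS2, chrX:55030978-55031227, minus strand: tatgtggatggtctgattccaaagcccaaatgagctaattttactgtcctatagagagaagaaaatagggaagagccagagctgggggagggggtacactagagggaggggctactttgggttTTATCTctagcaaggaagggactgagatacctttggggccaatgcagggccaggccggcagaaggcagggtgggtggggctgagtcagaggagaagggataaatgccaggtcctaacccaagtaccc
RHAG, chr6:49636840-49637089, minus strand: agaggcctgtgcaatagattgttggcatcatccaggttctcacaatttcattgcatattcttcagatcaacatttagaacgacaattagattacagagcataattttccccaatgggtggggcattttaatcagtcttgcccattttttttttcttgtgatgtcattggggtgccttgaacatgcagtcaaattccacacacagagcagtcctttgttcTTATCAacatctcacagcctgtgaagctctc
TFRC, chr3:196082091-196082340, minus strand: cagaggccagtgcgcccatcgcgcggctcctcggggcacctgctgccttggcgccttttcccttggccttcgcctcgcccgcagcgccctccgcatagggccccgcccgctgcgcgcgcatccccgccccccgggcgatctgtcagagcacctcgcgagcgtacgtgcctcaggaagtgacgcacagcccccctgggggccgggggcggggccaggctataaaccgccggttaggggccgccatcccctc

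The match in HBD begins 78 bases before the start, that in ALAS2 127 bases before it and that in RHAG 31 bases before it. Of the 26 member windows, 10 held AGATAA or TGATAA (38.5%), against 14.9% of 27305 promoters of the same length. The 10 were those of HBD, ALAS2, CPOX, EPB42, SPTB, EPOR, GYPE, KEL, RHAG and RHD. CACCC, the core of the sequences bound by KLF1, was in 14 member windows (53.8%) against 53.7% of all promoters, and CCAAT was in 10 (38.5%) against 33.0%. Both words were searched on both strands and can overlap the others. A match is a string of letters and not a shown binding site.

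Values are RMA log2 signals deposited by the authors, so 1 unit is a doubling of signal. Probe sets differ in how well they bind, and the level of one is not ranked here against the level of another. Dim probe sets were left untested: a mean over 6 arrays of 3.49, the median for all probe sets, was required, and 74 of the 84 reached it. The arrays correlated with each other at 0.997 across probe sets, and their medians lay between 3.47 and 3.52. All 5 erythroid markers that were looked for passed this filter (GATA1, KLF1, TAL1, TFRC and EPOR). Of the markers of other cell types, 4 of 5 megakaryocyte, 2 of 3 T cell, 1 of 3 B cell, 2 of 5 granulocyte and monocyte, and 2 of 3 fibroblast genes did. None of the markers was called. By the brightest probe set, 2 of the 5 erythroid genes (TAL1 and TFRC, the latter also a member) had an unadjusted p under 0.05. So did 1 B cell gene, CD79A. All of these were higher, where 3.59% of all genes were higher and 5.02% lower at that p. Signal in bulk RNA cannot tell fewer cells of a type from less RNA in each cell. GATA1 had a change of 0.05 (95% confidence interval -0.13 to 0.23) and KLF1 -0.06 (-0.19 to 0.07), while TAL1 had 0.22 on its brightest probe set (0.11 to 0.32, limma adjusted p = 0.232) and 0.12 and 0.05 on its others. The ranges in brackets after a change are 95% confidence intervals throughout.

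Among the alpha-like globins, HBZ, the embryonic zeta chain, gave 12.03, 12.02 and 12.08 on the DMSO arrays and 12.06, 11.98 and 12.05 on the CA arrays. The groups overlapped, and the change was -0.01 (95% confidence interval -0.12 to 0.09, limma adjusted p = 0.956). Adult alpha globin was read by 6 probe sets, each naming HBA2 and HBA1, whose coding sequences are nearly the same, so the pair cannot be told apart. The brightest of them gave 12.71, 12.76 and 12.72 in DMSO and 12.85, 12.70 and 12.73 in CA. Their fitted changes lay between 0.00 and 0.03, with adjusted p of 0.917 to 0.991. HBM, the mu chain gene, had 2.82, 2.69 and 2.69 in DMSO and 2.81, 2.97 and 2.48 in CA, below the filter, and was not tested.

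Of the beta-like globins, HBE1, the embryonic epsilon chain, gave 13.29, 13.27 and 13.27 in DMSO and 13.27, 13.25 and 13.28 in CA. The 6 arrays were nearly level, and the change was -0.01 (-0.10 to 0.08, adjusted p = 0.972). The fetal gamma chains were read by 3 probe sets naming HBG2 and HBG1, another pair of near-identical genes. The brightest had 14.08, 14.14 and 14.07 in DMSO and 14.13, 14.09 and 14.12 in CA, and its value on DMSO array 2 was the highest of any probe set other than controls on the 6 arrays. Whether the array still responds to more RNA at such a level was not tested. The gamma probe sets, whose groups overlapped, had changes of 0.02 to 0.03, with the widest bounds at -0.08 and 0.12.

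HBD, the minor adult delta chain, gave 8.42, 8.30 and 8.44 in DMSO and 8.42, 8.33 and 8.43 in CA, a change of 0.01 (-0.13 to 0.14). HBB, the adult beta chain, had 4 probe sets, of which 3 carry the suffix that marks possible binding to related transcripts. The brightest, which carries it, gave 7.16, 7.25 and 7.30 in DMSO and 7.25, 7.11 and 7.17 in CA. The HBB probe set without that suffix gave 5.06, 4.82 and 4.80 in DMSO and 4.70, 4.80 and 4.98 in CA. All 4 had fitted values below 0, from -0.07 to -0.01, and adjusted p of 0.792 to 0.968. A second HBE1 probe set, dim at 3.74 to 4.36 in DMSO, had -0.05 with a wide interval of -0.47 to 0.36. Over the 6 globin readings, each by its brightest probe set, the intervals reached from -0.21 to 0.15, so changes beyond 1.15-fold lay outside them.

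AHSP, the chaperone that holds free alpha globin, gave 7.14, 7.21 and 7.41 in DMSO and 7.22, 7.08 and 7.28 in CA. Its change of -0.06 (-0.27 to 0.14, adjusted p = 0.875) was smaller than the spread among the DMSO arrays.

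**Figure D1:**
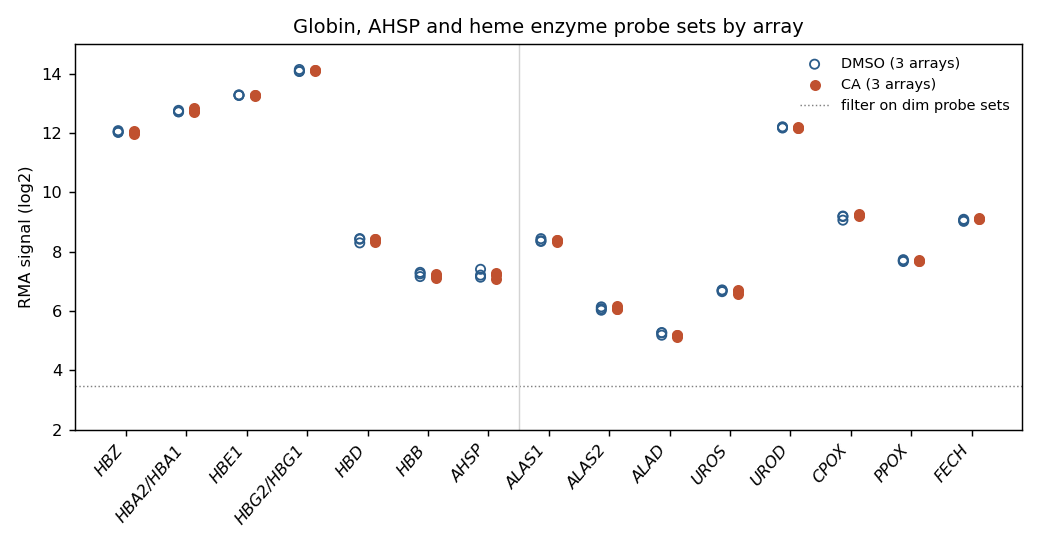
RMA signal (log2) of the brightest probe set for each globin, AHSP and heme synthesis gene, one point per array, open for DMSO and filled for CA (3 arrays each). Open and filled points of each gene stand side by side at nearly the same height, and the dotted line is the filter at 3.49.

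The first step of heme synthesis is made by ALAS1 in all cells and by ALAS2 in erythroid cells. ALAS1 gave 8.35, 8.37 and 8.44 in DMSO and 8.39, 8.39 and 8.32 in CA, a change of -0.02 (-0.13 to 0.09). ALAS2 gave 6.08, 6.03 and 6.14 in DMSO and 6.18, 6.08 and 6.08 in CA, a change of 0.03 (-0.10 to 0.15). Both groups overlapped for each enzyme, and a second ALAS2 probe set lay below the filter.

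ALAD, which joins the products of that step, had 5.19, 5.28 and 5.27 in DMSO and 5.19, 5.13 and 5.20 in CA, a change of -0.07 (-0.18 to 0.04, adjusted p = 0.709). UROS, which closes the ring, gave 6.71, 6.65 and 6.69 in DMSO and 6.67, 6.71 and 6.57 in CA (change -0.04, interval -0.16 to 0.09). UROD, which trims its side chains, gave 12.17, 12.19 and 12.21 in DMSO and 12.20, 12.17 and 12.18 in CA. That is a change of -0.01 (-0.10 to 0.09), and a second bright UROD probe set also had -0.01. In these early steps the CA arrays lay among or close to the DMSO arrays.

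CPOX, the next enzyme and back in the mitochondrion, had 9.06, 9.20 and 9.19 in DMSO and 9.22, 9.29 and 9.19 in CA. Its 0.08 (-0.05 to 0.22, adjusted p = 0.710) was the highest fitted value of the 8 enzymes. PPOX gave 7.70, 7.67 and 7.73 in DMSO and 7.71, 7.68 and 7.68 in CA, a change of -0.01 (-0.11 to 0.09). FECH, ferrochelatase, which inserts the iron, gave 9.09, 9.02 and 9.06 in DMSO and 9.12, 9.09 and 9.11 in CA, a change of 0.05 (-0.05 to 0.15). Another FECH probe set went the other way, at -0.07, and its CA arrays all lay below its closely spaced DMSO arrays (7.16 on each), with an adjusted p of 0.745. The lowest fitted value was on a dim PPOX probe set, at -0.16 (-0.44 to 0.12). Of the 16 tested heme enzyme probe sets 4 had fitted rises and 12 fitted falls, their median was -0.02, and 0 had an unadjusted p under 0.05, beside 9.31% of all tested probe sets.

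The next genes bring iron and glycine to heme synthesis. TFRC, the receptor that takes up iron-loaded transferrin, was read best by 3 probe sets. The one with the smallest p gave 11.75, 11.74 and 11.76 in DMSO and 11.97, 11.92 and 11.97 in CA, and every CA array lay above every DMSO array. Its change was 0.20 (0.11 to 0.30, 1.15-fold, adjusted p = 0.232). The brightest gave 12.10, 12.18 and 12.11 in DMSO and 12.26, 12.25 and 12.25 in CA, a change of 0.12 (0.02 to 0.23, adjusted p = 0.442). A dimmer one gave 5.49, 5.60 and 5.78 in DMSO and 6.09, 5.90 and 5.81 in CA, a change of 0.31 (0.07 to 0.55, adjusted p = 0.403). On these 3 probe sets the groups did not overlap, and on the remaining tested TFRC probe set (0.01, interval -0.37 to 0.39) they did.

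The same test was also run with limma's trend option, in which the prior variance depends on signal. There 2 of the TFRC probe sets were past the threshold, the one with the smallest p at an adjusted p of 0.000152 and the brightest at 0.0163. In that setting 285 probe sets were called over the array (1.04%), 180 of them higher (0.659%). With a filter at the 75th percentile of signal, the former was past it as well (adjusted p = 0.0346). Leaving out each array in turn, its change stayed between 0.19 and 0.22, and its adjusted p between 0.313 and 0.516.

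SLC25A37, mitoferrin-1, which carries iron into the mitochondrion, had 9 tested probe sets, 7 with fitted rises and 2 with fitted falls. The brightest gave 8.37, 8.43 and 8.40 in DMSO and 8.68, 8.57 and 8.40 in CA. CA array 1 was the highest and CA array 3 was level with DMSO, so the groups overlapped (change 0.15, -0.03 to 0.33, adjusted p = 0.613). On 3 others every CA array lay above the DMSO arrays, with changes of 0.17, 0.24 and 0.27 and adjusted p of 0.373 to 0.520. Those at 0.24 and 0.27 were dim, with DMSO means of 4.82 and 4.14. The next brightest probe set, with a DMSO mean of 7.32, had -0.01 (-0.13 to 0.10) and overlapping groups. The change of the brightest was 0.085 without CA array 1 and 0.23 without CA array 3, and that of the probe set at 0.17 was 0.10 without CA array 1. SLC25A38, the carrier for glycine, the amino acid at the start of heme synthesis, gave 7.88, 7.82 and 7.80 in DMSO and 7.90, 7.86 and 7.87 in CA (0.04, -0.06 to 0.15).

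Beside these values, the 5′ probe set of the beta-actin control was higher on the CA arrays (11.16, 11.05 and 10.93) than on the DMSO arrays (10.78, 10.75 and 10.87), with its 3′ probe set at 12.25 in both groups. With the 3′ to 5′ difference of actin as a covariate, a fit chosen after seeing the data, the change was 0.20 for the TFRC probe set with the smallest p, 0.15 for the brightest and -0.05 for the dimmer one. For SLC25A37 it was -0.13 on the brightest probe set, and -0.04, 0.39 and 0.05 on those at 0.17, 0.24 and 0.27. Adjusted p in that fit ran from 0.810 to 0.994 for these 7 probe sets. The part of actin in these results was not tested beyond that fit.

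**Figure D2:**
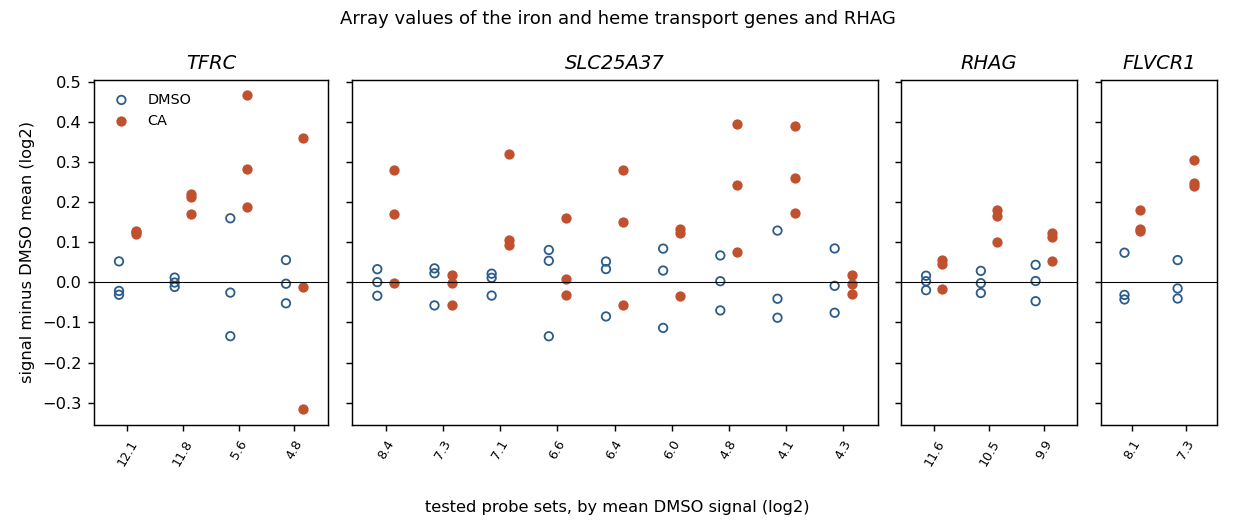
Signal minus the DMSO mean (log2) on each array for the tested probe sets of TFRC, SLC25A37, RHAG and FLVCR1, ordered by brightness, with the mean DMSO signal written under each. Open points are DMSO and filled points CA; the 3 CA points of TFRC clear the DMSO points on its 3 brightest probe sets and scatter on the dimmest.

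Of the enzymes of the red cell interior, CA1, carbonic anhydrase, gave 6.87, 6.78 and 6.76 in DMSO and 6.94, 6.86 and 6.94 in CA, a change of 0.11 (-0.01 to 0.23, adjusted p = 0.562). BPGM, which makes the phosphate that loosens oxygen from haemoglobin, gave 6.81, 6.81 and 6.73 in DMSO and 6.76, 6.66 and 6.64 in CA, a change of -0.10 (-0.23 to 0.03, adjusted p = 0.636). In both the groups overlapped at their edges. BLVRB, a biliverdin reductase, had 11.33 in DMSO and 11.30 in CA as group means. CA2 had values of 2.10, 2.64 and 2.18 in DMSO and 2.15, 2.16 and 2.64 in CA, below the filter.

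The membrane skeleton was read by 16 tested probe sets for 6 genes, with a median change of 0.01 and 0 calls. EPB41, protein 4.1, which joins spectrin to actin, had 9.70, 9.76 and 9.70 in DMSO and 9.76, 9.77 and 9.74 in CA on its brightest probe set (0.04, -0.06 to 0.13). A dim EPB41 probe set gave 3.68, 3.69 and 3.99 in DMSO and a mean of 4.02 ± 0.025 (SD, n = 3) in CA, with no overlap (0.24, 0.03 to 0.45, adjusted p = 0.480). ANK1, ankyrin, which anchors spectrin to band 3, had 7 tested probe sets between -0.06 and 0.11. The highest gave 7.79, 7.91 and 7.98 in DMSO and a lowest CA value of 7.94. The lowest of them gave 6.86, 6.92 and 6.81 in DMSO and 6.88, 6.77 and 6.79 in CA, and the groups overlapped in both. SPTB, beta spectrin, had a DMSO mean of 5.52 and a change of 0.01. EPB42, which binds band 3, had 4.35 and 0.0029, and DMTN, dematin, had 5.14 and -0.02. TMOD1, which caps actin filaments, had 8.42 and -0.0049. The groups of these 4 genes overlapped.

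RHAG, the glycoprotein that the Rh antigens need to reach the surface, was read by 3 probe sets. One gave 10.48, 10.45 and 10.51 in DMSO and 10.58, 10.65 and 10.66 in CA, with no overlap, a change of 0.15 (0.04 to 0.25, adjusted p = 0.376). It was past the threshold with the trend option (adjusted p = 0.0209), and had 0.19 with the actin covariate. Another gave 9.81, 9.86 and 9.90 in DMSO and 9.91, 9.97 and 9.98 in CA, also apart (0.10, -0.01 to 0.21). The brightest had 11.61, 11.65 and 11.63 in DMSO and 11.69, 11.68 and 11.61 in CA, where the groups overlapped (0.03, -0.07 to 0.13).

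RHD, the Rh blood group antigen, is nearly identical to RHCE, and its 3 single-symbol probe sets cannot be taken as RHD alone. Their changes were 0.06 to 0.09, with adjusted p of 0.615 to 0.760. SLC4A1, the anion exchanger band 3, gave 5.26, 5.28 and 5.15 in DMSO and 5.31, 5.60 and 5.29 in CA, so that the groups did not overlap but CA array 2 alone lay well above (0.17, -0.05 to 0.39). Without CA array 2 its change was 0.071. XK, the partner of the Kell protein, had 8.81, 8.84 and 8.80 in DMSO and 8.88, 8.90 and 8.88 in CA (0.07, -0.02 to 0.16), also with no overlap. ERMAP, which carries the Scianna antigens, gave 6.81, 6.82 and 6.85 in DMSO and 6.79, 6.80 and 6.74 in CA, all lower (-0.05, -0.15 to 0.05). KEL, the Kell antigen, had a DMSO mean of 5.55 and a change of -0.08 (-0.29 to 0.13). None of the 10 tested probe sets of this group was called.

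EPOR, the erythropoietin receptor, gave 6.08, 5.92 and 6.15 in DMSO and 5.84, 6.22 and 6.27 in CA on its brightest probe set, where CA array 1 was the lowest of the 6 (0.06, -0.24 to 0.36). Its other tested probe sets, with DMSO means of 5.98, 4.27 and 4.10, had changes of -0.05, 0.06 and -0.04. TRIM58, a ubiquitin ligase of late erythroblasts, gave 6.31, 6.27 and 6.14 in DMSO and 6.24, 6.33 and 6.18 in CA (0.01, -0.14 to 0.17).

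**Figure D3:**
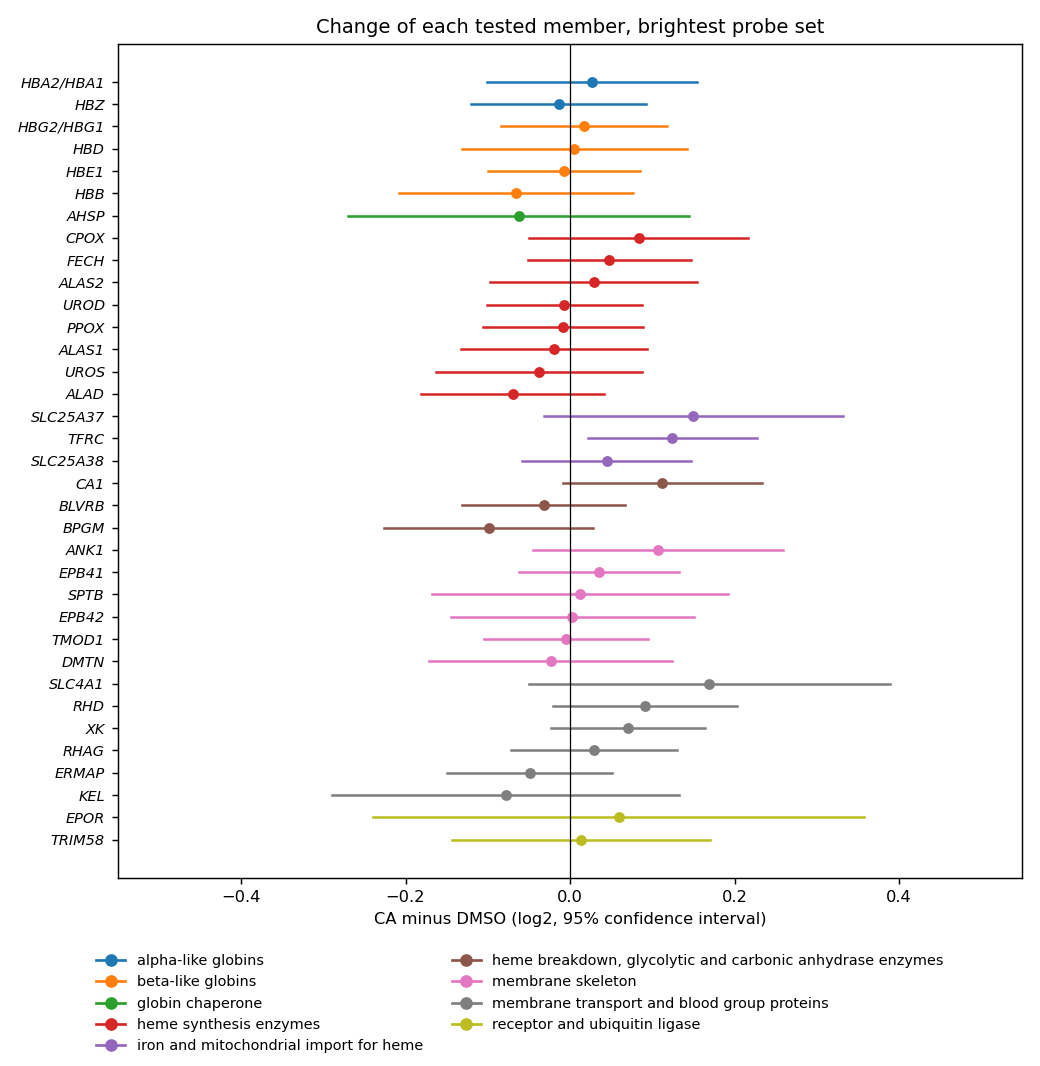
Change from DMSO to CA (log2) with its 95% confidence interval for the brightest tested probe set of 33 genes and of the HBA2/HBA1 and HBG2/HBG1 pairs, coloured by subgroup. Among these, TFRC at 0.12 has an interval that stays above 0.

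Fitted values were above 0 for 40 of the 74 tested member probe sets and below it for 34. Their median was 0.01, where that of all tested probe sets was -0.01. At an unadjusted p under 0.05 there were 8 higher (10.8%; background 4.55%) and 0 lower (background 4.76%). These 8 came from 4 genes: TFRC and SLC25A37 with 3 each, and RHAG and EPB41 with 1 each, so they are not 8 independent readings. Without shared probe set types (suffix _x, _s or _a), 1 of 36 was higher (2.78%; background 3.88%). By the brightest probe set only TFRC of the 33 genes had an unadjusted p under 0.05 (background of all genes 3.59% higher and 5.02% lower). The count of 8 was 4 when DMSO array 1 was left out and 7 when CA array 3 was. Leaving out any of the other four arrays gave 5. All CA arrays lay above all DMSO arrays for 12 (16.2%; background 7.09%) and below for 2 (2.7%; background 8.52%). Of the 12, TFRC and SLC25A37 had 3 each and RHAG 2, so these too are not independent. By the brightest probe set of each gene, 4 of 33 lay above and 1 below, beside 787 and 1274 of 12810 genes.

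By subgroup the median change of probe sets was 0.12 for iron and mitochondrial import (14 probe sets) and 0.08 for transport and blood group proteins (10). It was 0.01 for the membrane skeleton (16), -0.01 for EPOR and TRIM58 (6), -0.02 for heme enzymes (16), -0.03 for the interior enzymes (3) and -0.05 for the beta-like globins (7). Probe sets of 1 gene are not independent readings. SLC25A37 had 9 and TFRC 4 of the 14, and RHAG and RHD had 3 each of the 10. By the brightest probe set of each gene, the median was 0.12 for import (3 genes) and 0.05 for transport (6 genes). The iron and mitochondrial median of probe sets was 0.07 without CA array 1 and -0.01 with the actin covariate. Scaling to the 3′ probe sets of the added poly(A) control RNAs would add 0.20 to every change and lift the median of all tested probe sets to 0.19, so the negative medians turn positive there. Changes here are relative to the other transcripts.

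**Figure D4:**
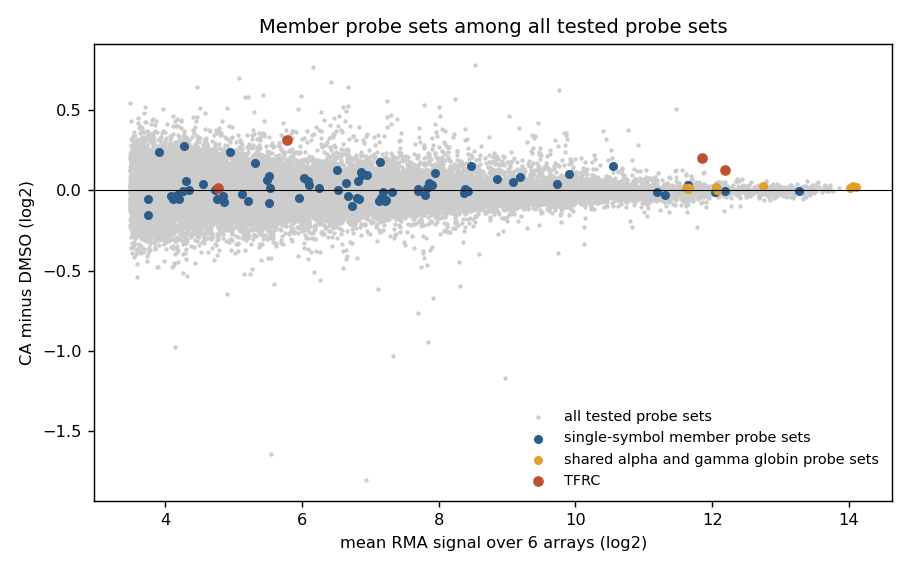
Change from DMSO to CA (log2) against the mean signal over 6 arrays (log2) for 27307 tested probe sets (grey), with the member probe sets in blue, TFRC in red and the shared alpha and gamma globin probe sets in orange. The 2 bright TFRC probe sets lie at 0.12 and 0.20, and the globin points lie close to 0.

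Other genes of the pathway were taken from a list of heme and iron handling genes, of which 16 of 21 were tested, and a list of further membrane genes, of which 17 of 20 were. None was called. At an unadjusted p under 0.05, 1 gene of the first list was higher and 0 lower, and 1 of the second was higher and 1 lower, which is near the 3.59% higher and 5.02% lower among all genes. Their medians were -0.00049 and -0.01. FLVCR1, a heme exporter of the cell surface, had 7.35, 7.28 and 7.25 in DMSO and 7.60, 7.54 and 7.54 in CA on one probe set, well apart (0.26, 0.15 to 0.38, adjusted p = 0.179). Its brighter probe set gave 8.17, 8.05 and 8.06 in DMSO and 8.22, 8.27 and 8.23 in CA (0.15, 0.03 to 0.26, adjusted p = 0.425). With the trend option the first was past the threshold (adjusted p = 0.0163), and with the actin covariate these changes were 0.22 and 0.13. STEAP3, the reductase that turns endosomal iron to the form that is transported, had 7.19, 7.19 and 7.20 in DMSO and 7.16, 7.05 and 7.07 in CA (-0.10, -0.21 to 0.01).

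Of the further membrane genes, AQP1, a water channel, gave 4.48, 4.64 and 4.66 in DMSO and 5.08, 4.72 and 4.76 in CA on its brighter probe set (0.26, 0.0038 to 0.52, adjusted p = 0.530). There CA array 1 lay well above the other CA arrays. Another AQP1 probe set had a fitted change of 0.32. KCNN4, the calcium-gated potassium channel of red cells, gave 6.09, 6.15 and 6.14 in DMSO and 5.96, 5.91 and 6.06 in CA (-0.15, -0.27 to -0.02, adjusted p = 0.457). Neither gene passed the test, and in both the groups did not overlap on the probe set whose array values are given.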

How the data were processed

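Total RNA (100 ng) from K562 wells plated at 500000 to 800000 cells per mL was labelled with a 3′ IVT kit, and 3 DMSO and 3 CA samples were read on the Affymetrix U133 Plus 2.0. RNA was isolated with a column kit or a phenol reagent, and the labels do not say which for which sample. The authors deposited log2 values made by RMA in the affy package, per the submitters' processing notes, with no version given. RMA gives every array the same overall level, which hides any shift that most transcripts share.

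Of 54675 probe sets, 62 controls were left out. Genes were named from the platform annotation. The comparison used limma 3.58.1 under R 4.3.3 (lmFit, then eBayes) on all 6 arrays without a block, as a 2-sided test. P-values were adjusted by Benjamini-Hochberg over the 27307 tested probe sets, and called means an adjusted p under 0.05. The median standard error was 0.07, and the number of arrays limits precision. A gene is represented by its brightest tested probe set. The fit was tested on simulated data. Array values are given for every globin and heme enzyme gene and, elsewhere, for the probe sets with the smallest p in each direction; further array values were chosen after they were seen. The member genes, lists and tests were chosen with earlier results of these data known. The same replicate number in both groups did not go with shared deviations (correlations of -0.07, 0.01 and 0.06). Alternatives were other filters, scalings, weights, the trend option, a replicate block, an actin covariate and leaving out each array. Some reporting choices were made after seeing the output: medians are given for subgroups of at least 3 tested probe sets, and a change of sign is reported singly only for probe sets with an unadjusted p under 0.05.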

Additional observations from a re-analysis of the deposited data

How the results depend on the processing

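Over all probe sets, 26 were called and 0 of them were members. The count over all was 5 with no filter and 162 with the 75th percentile filter (1 member, 2.04% beside 1.19% of all). With the variance following the mean it was 285 (3 members, 4.05% beside 1.04% of all), the members being 2 probe sets of TFRC and 1 of RHAG. The count was 3691 with 3′ control scaling (18 members, 24.3% beside 13.5% of all) and 1 without shared probe set types. It was 0 with the replicate block and 0 with the actin covariate. That covariate was chosen after seeing the data and did not overlap between the groups, so its fit cannot tell it from CA. With 1 array left out the count was 2 to 5, with 0 members. Members at an unadjusted p under 0.05 numbered 8 higher and 0 lower. The higher count was 48 with 3′ scaling (64.9%, beside 50.6% of all tested probe sets, since that scaling adds 0.20 to every change). It was 1 of 36 without shared types (2.78%, beside 3.88% of all), 0 with the covariate and 4 to 7 with 1 array left out. The lower count was 1 with no filter, 1 with array weights, 2 with the covariate and 0 to 1 with 1 array left out. Medians with 3′ scaling were 0.20 for all members, 0.15 for beta-like globins, 0.18 for heme enzymes, 0.32 for iron and mitochondrial import, 0.16 for interior enzymes, 0.20 for the skeleton, 0.28 for transport proteins and 0.18 for EPOR and TRIM58. With 5′ scaling they were 0.048, -0.0052, 0.026, 0.17, 0.011, 0.051, 0.12 and 0.030 in the same order. With the covariate they were 0.0093 for beta-like globins, -0.035 for heme enzymes, -0.011 for import, 0.033 for interior enzymes and 0.12 for transport. Without shared types they were -0.013 for all members, -0.055 for heme enzymes, 0.045 for import, -0.065 for interior enzymes and 0.043 for transport. Median centring gave -0.00997 for all members, -0.031 for heme enzymes and 0.066 for transport. Beta-like globins had -0.010 with the 75th percentile filter, -0.0098 with array weights and -0.0087 with the shared gamma probe sets. Interior enzymes had 0.0081 with no filter, and the median over genes was -0.013 when each gene took the median of its probe sets. With 1 array left out, medians ran from 0.00016 to 0.015 for all members, -0.041 to -0.0077 for beta-like globins, -0.025 to -0.0011 for heme enzymes, 0.067 to 0.18 for import, -0.052 to -0.019 for interior enzymes, -0.0062 to 0.017 for the skeleton, 0.063 to 0.090 for transport and -0.041 to 0.011 for EPOR and TRIM58. The dimmer TFRC probe set (-0.053) and the SLC25A37 probe set at 0.17 (-0.041) turned negative with the covariate. Of 33 member genes, 15 changed the sign of their fitted value with 3′ scaling, 9 with 5′ scaling and 8 with the covariate. With 3′ scaling 7 were called (21.2%, beside 11.5% of all 12810 genes). Both scalings add a constant to every change, and fewer arrays or probe sets leave fewer degrees of freedom or tests. Otherwise the cause was not tested. Replicate numbers did not pair the arrays, and the replicate block called no member. With 3 arrays a group, changes smaller than the intervals given cannot be told from 0, and gamma globin lay near the top of the signal scale.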
